A study of Mus musculus with 6 samples.

Results

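The 652 most accessible distal regions of WT lung endothelial cells were examined, as measured by ATAC-seq, a method that reads where the Tn5 transposase can cut and tag open DNA. They were taken from a deposited table of 58172 regions, of which 35673 lie on the 19 autosomes and carry no assigned gene. A region was a member when the mean of its 3 WT values was at least 300 and no library exceeded 10000. WT values thus chose the members, and WT levels and the fall or rise against them are given as description unless a WT library outside the choice was used. In the table a distal region is one with no assigned gene, which is not the same as one with no transcription start site inside it.

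The CSE-KO mice are labelled Cre-positive and their controls, WT, Cre-negative, with 3 libraries of lung endothelial cells in each group. Cystathionine gamma-lyase (CSE), encoded by Cth, makes cysteine from cystathionine, and the study asked how cysteine supply is linked to histone acetylation and open chromatin in endothelial cells. Per the labels, each library was made from 50000 cells. The labels name neither the promoter that drives Cre nor the age of the mice, nor do they say that libraries of a group came from separate animals, so the p-values speak only of the spread among these libraries, which may be technical. Cre and the loss of CSE cannot be told apart, because the same libraries carry both.

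Enhancers are stretches of DNA away from gene starts where transcription factors bind, displace nucleosomes and raise transcription of a gene that can lie far off. In endothelial cells, factors of the ETS family act together with SOX, GATA, FOX, KLF and AP-1 factors at such sites, and acetylation of nearby histones goes with their activity. Promoters rich in CG pairs, by contrast, tend to be open in most cell types. An ATAC-seq value counts insertions in a bulk of cells, so fewer cells with an open site and a site less open in every cell cannot be told apart.

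The promoter of Cth had values of 11, 6 and 2 in CSE-KO and 195, 157 and 167 in WT, without overlap. Promoter regions were present for 12 of 15 endothelial markers, all but Pecam1, Sox17 and Robo4, and their summed value per library was 1595 to 1764 in CSE-KO and 1329 to 1439 in WT, while the median over these promoters was lower in CSE-KO, at 94 in CSE-KO and 109 in WT. For mural and fibroblast markers 3 of 8 had a promoter region, summing to 118 to 151 in CSE-KO and 130 to 144 in WT, with medians of 29.3 in CSE-KO and 44.3 in WT. For lung epithelial markers 2 of 9 did, summing to 131 to 189 in CSE-KO and 128 to 164 in WT, with medians of 83 in CSE-KO and 73.8 in WT. For leukocyte markers 2 of 8 did, summing to 175 to 186 in CSE-KO and 247 to 284 in WT, with medians of 90.3 in CSE-KO and 133 in WT. The markers of these other cell types with a promoter region were Pdgfrb, Acta2 and Myh11, Epcam and Foxj1, and Cd68 and Spi1, in the same order. Those without one included Ptprc and Cd3e of leukocytes, Pdgfra and Dcn of fibroblasts and Sftpc and Nkx2-1 of lung epithelium. The summed leukocyte values were lower in every CSE-KO library than in any WT library, and their part in the results below was not tested.

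A share of the members hold a transcription start site in RefSeq although the table assigns them no gene. Such a start was found in 91 members. The start windows shown here, from 250 bases before to 50 bases after a RefSeq start (build GRCm38.p6), are those of the 3 members that hold a protein-coding start and were called lower in CSE-KO, then of 3 members that were not called. They were chosen with their values known, and they are shown because the members called lower differ from the others in base composition. Lower case is the 5′ to 3′ sequence of the gene's strand, and capitals mark any match to a searched motif on either strand.
Mrtfb, called lower, chr16:13358171-13358470, plus strand: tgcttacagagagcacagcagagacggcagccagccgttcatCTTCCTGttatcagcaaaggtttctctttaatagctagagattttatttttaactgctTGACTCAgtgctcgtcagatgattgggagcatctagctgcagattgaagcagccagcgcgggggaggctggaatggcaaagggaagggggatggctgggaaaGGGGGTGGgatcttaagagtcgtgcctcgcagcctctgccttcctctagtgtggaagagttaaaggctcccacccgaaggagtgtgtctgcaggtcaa
Sgk1, upstream start, called lower, chr10:21991973-21992272, plus strand: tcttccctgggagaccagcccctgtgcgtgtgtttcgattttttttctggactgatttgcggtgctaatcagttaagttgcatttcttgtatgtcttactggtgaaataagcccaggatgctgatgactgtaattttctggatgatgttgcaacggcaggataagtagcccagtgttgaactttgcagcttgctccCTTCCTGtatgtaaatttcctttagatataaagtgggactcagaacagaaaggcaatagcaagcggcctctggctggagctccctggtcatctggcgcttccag
Synj2, called lower, chr17:5975330-5975629, plus strand: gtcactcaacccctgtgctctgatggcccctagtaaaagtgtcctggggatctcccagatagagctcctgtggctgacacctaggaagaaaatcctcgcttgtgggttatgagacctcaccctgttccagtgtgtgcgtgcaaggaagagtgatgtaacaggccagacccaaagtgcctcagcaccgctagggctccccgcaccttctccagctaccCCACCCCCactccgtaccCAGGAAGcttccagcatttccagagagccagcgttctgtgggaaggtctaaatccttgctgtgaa
Sgk1, downstream start, not called, chr10:21994416-21994715, plus strand: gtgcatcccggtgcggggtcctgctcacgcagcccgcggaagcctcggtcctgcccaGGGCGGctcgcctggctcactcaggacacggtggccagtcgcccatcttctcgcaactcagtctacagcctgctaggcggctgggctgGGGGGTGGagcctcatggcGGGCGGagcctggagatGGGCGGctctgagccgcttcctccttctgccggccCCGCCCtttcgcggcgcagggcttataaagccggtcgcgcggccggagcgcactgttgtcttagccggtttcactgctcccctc
Psat1, not called, chr19:15924573-15924872, minus strand: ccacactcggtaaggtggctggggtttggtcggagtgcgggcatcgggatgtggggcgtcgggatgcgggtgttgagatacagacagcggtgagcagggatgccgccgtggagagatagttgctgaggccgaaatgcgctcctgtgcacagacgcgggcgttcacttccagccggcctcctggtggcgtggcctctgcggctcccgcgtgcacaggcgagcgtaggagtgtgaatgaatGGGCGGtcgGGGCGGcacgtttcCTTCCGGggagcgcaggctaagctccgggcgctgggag
LOC108167694, not called and highest in WT of all members, chr9:124423351-124423650, minus strand: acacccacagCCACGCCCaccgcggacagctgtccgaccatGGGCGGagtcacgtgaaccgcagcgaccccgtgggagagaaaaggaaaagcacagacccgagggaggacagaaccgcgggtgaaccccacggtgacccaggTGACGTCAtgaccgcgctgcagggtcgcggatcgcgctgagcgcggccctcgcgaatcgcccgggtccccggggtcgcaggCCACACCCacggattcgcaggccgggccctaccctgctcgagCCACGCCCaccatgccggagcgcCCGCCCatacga
The motifs searched, on both strands, were ETS (CAGGAAG), an ETS form with a CG pair (CCGGAAG), AP-1 (TGANTCA), CRE (TGACGTCA), the GC box (GGGCGG), KLF (GGGNGTGG), a form for GATA factors (AGATAAG), SOX (ACAATGG) and FOX (TGTTTAC). Matches of different motifs can overlap, as the KLF and GC-box forms do. The windows of Mrtfb, the upstream Sgk1 start and Synj2 hold 8, 6 and 6 CG pairs, each has a match to CAGGAAG, and none has a GC box. The window of the downstream Sgk1 start holds 28 CG pairs, that of Psat1 holds 30 and that of LOC108167694 holds 37, and all 3 have a GC box and no match to CAGGAAG. The upstream Sgk1 window reaches past the end of its region, and the other windows lie wholly inside theirs. Mrtfb encodes a coactivator of serum response factor, Synj2 an inositol phosphatase, Sgk1 a serum- and glucocorticoid-induced kinase, and Psat1 the phosphoserine aminotransferase of serine synthesis.

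The members are wide regions that spread over many genes. Their median width was 960.5 bp, with a range of 227 to 2616 bp, against 382 bp for the other autosomal regions with no assigned gene. A protein-coding start of the table lay within 100 kb of 484 members (74.2%), against 67.9% of the other regions of this kind. These 484 members named 449 genes, of which 415 had 1 member, 33 had 2 and 1, Arhgap18, had 3. The median distance was 44.5 kb for members and 54.5 kb for the others. Distances and names rest on the 12711 protein-coding genes in the table, and starts that it does not give are not counted. The 77 members that hold a protein-coding RefSeq start thus had a median distance of 39.8 kb, so a nearer start can be missed. In RefSeq, 374 members (57.4%) lay inside a protein-coding gene, against 54.5% of the others, and the gene named by distance was the host for 195 of these 374. Such a name gives position alone and says nothing of which gene a region acts on. Joining members less than 12.5 kb apart left 611 alone and put 41 into 20 groups, the largest of which, at Sgk1, had 3.

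The members took 3.43%, 3.42% and 3.42% of all values in the CSE-KO libraries and 4.89%, 4.79% and 4.66% in the WT libraries. The median member value was 279, 276 and 277 in the 3 CSE-KO libraries and 378.5, 363 and 352 in the 3 WT libraries. Regions with an assigned gene were chosen by the same floor, a WT mean of at least 300, at any distance from a start. They had medians of 356, 386 and 382 in CSE-KO and 386.5, 369 and 383 in WT. Medians of members therefore did not overlap between groups and those of regions with an assigned gene did. The SD between libraries had a median over members of 30.1 in CSE-KO (11.4% of the mean) and 24.7 in WT (6.55%). The deposited values up to 100 skip 39, 35 and 39 whole numbers in CSE-KO and none in WT, so 1 read was worth about 1.64, 1.54 and 1.64 units in CSE-KO, and a CSE-KO value of 300 carries a counting SD of about 22.2, 21.5 and 22.2. In WT 1 read was worth at most 1 unit and that SD is at most 17.3. CSE-KO values thus rest on fewer reads.

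Most members had lower values in CSE-KO, and a minority of these passed the test. Of 652 members, 241 (37.0%) fell at an adjusted p of at most 0.05 in limma fitted on all tested regions, against 9.6% of the 58129 tested regions. A rise was called for 2 members (0.307%), against 7.7% of tested regions. The mean was lower in CSE-KO than in WT for 556 members (85.3%), against 48.4% of tested regions and 71.7% of distal regions with a WT mean of 100 to 300. All 3 CSE-KO values lay under all 3 WT values in 431 members (66.1%), against 20.5% of tested regions. All 3 CSE-KO values lay above all 3 WT values in 23 of 652 members, against 19% of tested regions. The median log2 change of members was -0.45, with quartiles of -0.80 and -0.15, beside a median of 0.0 over all tested regions. Because a high WT mean chose the members, these shares contain an effect of that choice. Without WT replicate 1, 2 or 3 the count called lower was 86, 90 and 94, where 3.19%, 3.21% and 3.25% of tested regions were lower, and 1 member was called higher in each; limma's trend and robust options gave 401 lower and 15 higher.

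Holding was read from the interval of the change and not from a missed test. For 407 members (62.4%), against 51% of tested regions, the 95% limma interval lay wholly within 2-fold in either direction. Of these, 21 were also called, and 23 members were neither called nor held. At least 2-fold falls were called for 99 members (15.2%), against 5.93% of tested regions. The CSE-KO mean was still at least 300 for 273 members (41.9%), against 80.2% of regions with an assigned gene and a WT mean of at least 300. Of those gene-assigned regions 92.4% held within 2-fold. Among distal regions with a WT mean of 100 to 300, 61.9% held.

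**Figure D1:**
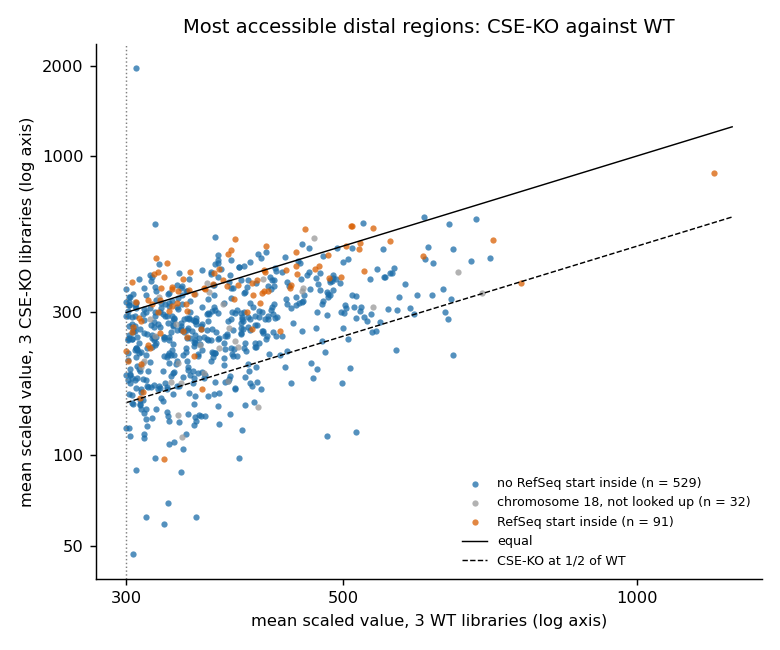
Mean scaled value of each of the 652 members in 3 CSE-KO libraries (vertical, log axis) against the mean of 3 WT libraries (horizontal, log axis), coloured by whether a RefSeq start lies inside. The solid line marks equal values and the dashed line a CSE-KO value of 1/2 of WT. Most points lie under the solid line, and orange points lie closer to it than blue ones do.

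The plot of CSE-KO against WT means shows the floor at 300 as the left edge, so no member could enter with a lower WT mean. Values just inside the floor were those of the members near Vezt, with means of 185 in CSE-KO and 300 in WT, at chr10:90068542-90069198, with 291 in CSE-KO and 300 in WT, and near Pnrc1, with 325 in CSE-KO and 300 in WT. Just outside, the regions near Spag9 and Acer2 and one at chr14:25304113-25305043 had CSE-KO means of 237, 245 and 156, with a WT mean that also rounds to 300. Of these 6 regions, that near Pnrc1 had a higher mean in CSE-KO and the others a lower one. The share called lower was 33.6% of 277 members with a WT mean of 300 to 350, 41.8% of 165 at 350 to 400, 31.0% of 142 at 400 to 500 and 51.5% of 68 at 500 or more. Outside the autosomes, 2 regions of chromosome X met the floor, with means of 294.3 and 204.7 in CSE-KO and 324.7 and 325.7 in WT.

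Fits in which the WT library that chose the members was left out gave falls as well. Of 730 regions with a value of at least 300 in WT replicate 1, 99 (13.6%) were called lower in the 3 CSE-KO libraries against WT replicates 2 and 3, where 3.19% of tested regions were. Choice on WT replicate 2 gave 84 of 655 (12.8%, against 3.21% of tested regions), and choice on WT replicate 3 gave 84 of 592 (14.2%, against 3.25%). A rise was called for 2 regions in the first of these fits, against 3% of tested regions, and for none in the others, against 3.06% and 2.75%. The median log2 change was -0.42, -0.43 and -0.46, beside -0.01 over all tested regions in each fit. The 3 fits share the CSE-KO libraries and each pair shares a WT library, so they are not independent of one another. Of the 652 members, 509 reached 300 in every WT library and could enter all 3 fits, 64 of the 652 were called lower in all 3 and 97 in at least 1. The mean of all 3 WT libraries chose the 652, so these last counts contain an effect of that choice. No share over all tested regions was taken for them.

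Counting highly accessible regions library by library needs no choice on WT. Autosomal regions with no assigned gene and a value of at least 300 numbered 390, 406 and 420 in CSE-KO and 730, 655 and 592 in WT, or 405 ± 15 in CSE-KO and 659 ± 69.1 in WT (SD, n = 3 each). The groups did not overlap, and a two-sided exact permutation test gave p = 0.1, which 3 against 3 cannot go under. Among those with no RefSeq start inside, the counts were 288, 291 and 306 in CSE-KO and 602, 539 and 476 in WT, so that the CSE-KO mean was 54.7% of the WT mean (exact permutation p = 0.1). Among those with a RefSeq start inside they were 86, 97 and 97 in CSE-KO and 94, 83 and 88 in WT, and the groups overlapped (exact permutation p = 0.3). Regions with an assigned gene numbered 2261, 2704 and 2656 in CSE-KO and 2374, 2160 and 2328 in WT, again with overlap (exact permutation p = 0.3).

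**Figure D2:**
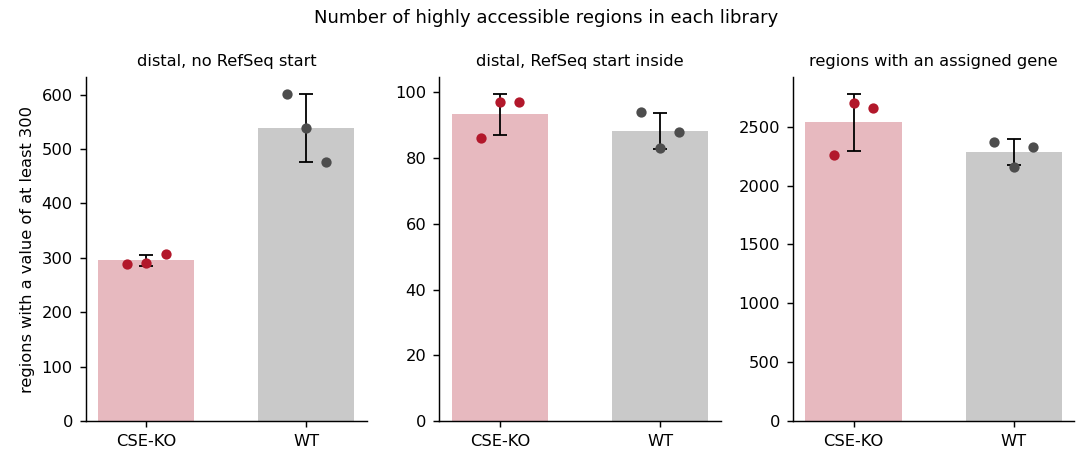
Number of autosomal regions with a value of at least 300 in each library, for distal regions without a RefSeq start, distal regions with one, and regions with an assigned gene. Points are libraries, bars are group means and whiskers are 1 SD (n = 3 each). In the left panel the CSE-KO libraries (288 to 306) lie under all WT libraries (476 to 602), and in the other panels the groups overlap.

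The plot of counts per library shows groups apart for distal regions without a start and overlapping in the other panels, and the difference between panels was not tested. A list chosen in CSE-KO is not the mirror of the WT list. With a CSE-KO mean of at least 300 as the floor, 389 regions qualified, 273 of which are members, or 41.9% of the WT list and 70.2% of the CSE-KO list. The 116 regions in the CSE-KO list alone had a median of 328 in CSE-KO and 249 in WT, 40 were called higher, and 24 held a RefSeq start. Being in that list alone fixes a higher mean in CSE-KO than in WT, so these values are description. In the CSE-KO list as a whole, 21 of 389 regions were called lower and 42 higher, and the median log2 change was 0.05. Over all tested regions 9.6% were lower and 7.7% higher, and the counts in this list contain an effect of choice on CSE-KO. Of the 12 regions highest in WT, 2 were among the 12 highest in CSE-KO, and of the top 100 in each, 35 were shared.

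Members without a RefSeq start carried 217 of the 241 falls. Of the members on chromosomes other than 18, 529 held no start, and those on chromosome 18 were not looked up. Of these 529 members 217 (41.0%) were called lower, 90 of them at least 2-fold, and 309 (58.4%) held within 2-fold, with a median log2 change of -0.50. Of the 91 members with a start 9 (9.89%) were called lower and 84 (92.3%) held, with a median of -0.09. The median value of members without a start was 268, 265 and 266 in CSE-KO libraries and 377, 363 and 351 in WT libraries, which did not overlap. That of members with a start was 346, 371 and 381 in CSE-KO and 389, 360 and 369 in WT, which did. Both kinds had to pass the same WT floor. Of the 32 members on chromosome 18, 15 were called lower.

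Calls were unevenly spread over the kinds of start. Of 77 members with a protein-coding start 3 (3.9%) were called lower and 75 (97.4%) held, with a median log2 change of -0.06. Those 3 members, at Mrtfb, Sgk1 and Synj2, were called in no fit that left out a WT library used to choose them, with largest adjusted p of 0.0639, 0.144 and 0.124. Of the 14 members with noncoding starts alone 6 (42.9%) were called lower, with a median of -0.46. The same order held one tier down, among regions with no assigned gene and a WT mean of 100 to 300: 20 of 320 with a RefSeq start (6.25%) and 1430 of 5537 without one (25.8%) were called lower, with medians of 0.07 and -0.32. Regions with an assigned gene and a WT mean of at least 300 were called lower in 82 of 1978 cases (4.15%) within 1 kb of the start and in 66 of 278 cases (23.7%) farther away. Members without a start were called lower at near shares inside and between genes: 112 of 277 (40.4%) inside a RefSeq gene and 105 of 252 (41.7%) between genes were called lower.

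**Figure D3:**
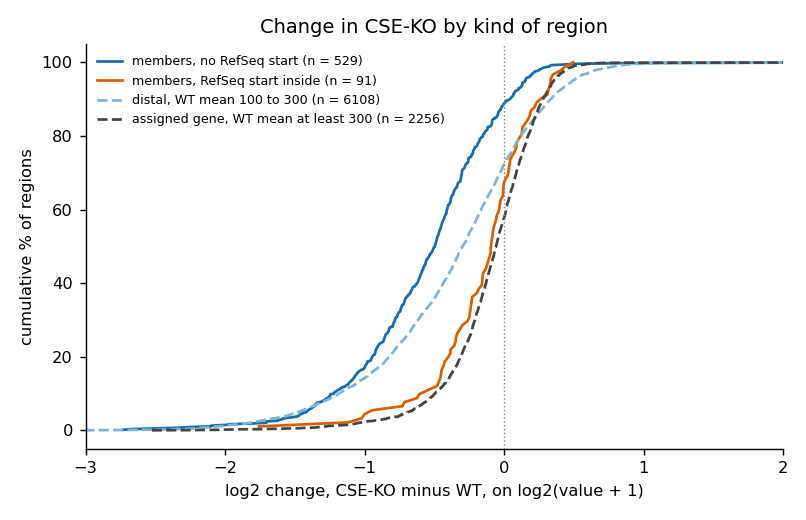
Cumulative percent of regions (vertical) against the log2 change, CSE-KO minus WT (horizontal), for members without a RefSeq start, members with one, distal regions with a WT mean of 100 to 300, and regions with an assigned gene and a WT mean of at least 300. The curve of members with a start (median -0.09) runs beside that of gene-assigned regions (median -0.06), and that of members without a start (median -0.50) lies to the left of the others through its middle.

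The cumulative plot sets the members beside regions of lower WT level and regions with an assigned gene. The share called lower was smallest among the widest members and had no steady order with distance, and neither was tested. Among members without a start, 81 of the 177 narrowest (45.8%), 80 of the 179 of middle width (44.7%) and 56 of the 173 widest (32.4%) were called lower, with limits at 833 and 1058 bp. Distance was taken to the nearest protein-coding start of the table. Of 136 members within 20 kb 38.2% were called lower, and of 148 at 20 to 50 kb 36.5% were. The shares were 46.3% of 108 at 50 to 100 kb and 44.5% of 137 farther away. Members with a start were wider, with a median of 1207 bp against 933 bp without one, and the part of width in the difference was not tested.

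The members called lower had few CG pairs in their start windows. This split was chosen after the values were seen, with windows of at least 1 start in each of the 91 members and the highest CG count taken where a member held several. All 9 members called lower were among the 21 with fewer than 10 CG pairs, whose median log2 change was -0.40. None of the 14 members with 10 to 19 pairs or of the 56 with 20 or more was called lower, all 70 held within 2-fold, and their medians were 0.02 and -0.04. Among regions with no assigned gene and a WT mean of 100 to 300, 17 of 97 (17.5%), 2 of 77 (2.6%) and 1 of 146 (0.685%) were called lower in the same order of CG pairs. Among regions with an assigned gene and a WT mean of at least 300, 19 of 56 (33.9%), 12 of 290 (4.14%) and 17 of 1319 (1.29%) were. The share called lower was highest at the lowest CG count in all 3 sets. The base composition of members without a start was not looked up, and whether the libraries differed in their recovery of CG-rich DNA was not tested.

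**Figure D4:**
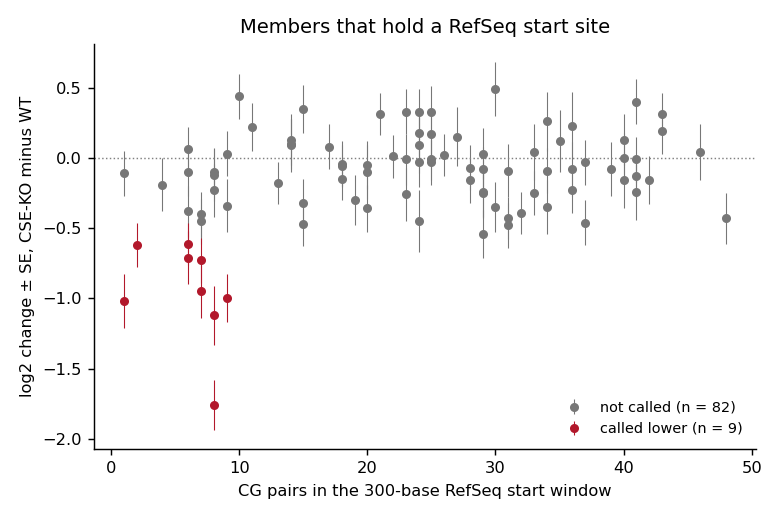
Log2 change, CSE-KO minus WT, with its standard error (vertical) against CG pairs in the 300-base RefSeq start window (horizontal) for the 91 members that hold a start. The 9 red points, called lower, lie at fewer than 10 CG pairs, and the 82 grey points, not called, lie on both sides of 0 at 10 CG pairs and above and mostly under 0 below that.

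The plot of change against CG pairs also shows grey points among the CG-poor starts, so few CG pairs did not go with a called fall in every member, although most of these grey points lie under 0. The 118 start windows in members held a GC box in 61.9%, against 35.6% of all 32817 RefSeq windows. In the 10 windows of members called lower there was none, against 73 of 108 (67.6%) in members not called. Matches to CAGGAAG were in 5 of those 10 windows and in 13.0% of the 108, against 13.3% of all windows. AP-1 matches were in 13 of 118 member windows against 7.81% of all windows, CRE matches in 3.39% against 1.79%, KLF matches in 25.4% against 17.6% and CCGGAAG in 8.47% against 8.86%. GATA, SOX and FOX matches were in 0%, 2.54% and 0.847% of member windows, against 3.05%, 3.67% and 3.65% of all. A match is a run of letters and not a bound site.

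Sgk1 shows both kinds of start side by side. The member over its upstream start, chr10:21991372-21992234, had values of 224, 184 and 233 in CSE-KO and 377, 386 and 293 in WT, without overlap, and was called lower (log2 change -0.71 ± 0.19 SE, limma adjusted p = 0.0438). Neither fit without a WT library that chose it called it, the larger adjusted p being 0.144. The member over its CG-rich downstream start, 1697 bp away, had 394, 409 and 458 in CSE-KO and 448, 493 and 462 in WT, which overlapped, and its change was -0.16, with a 95% interval of -0.53 to 0.21. Another member, at 22000097-22001336, had 185, 199 and 228 in CSE-KO and 486, 503 and 403 in WT, a 2.27-fold fall. It was also called in every fit leaving out a WT library that chose it, although the WT libraries kept in those fits chose it too.

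Close members often differed in call. Of 21 pairs of neighbouring members less than 12.5 kb apart, 2 had both members called lower, 13 had 1 and 6 had none. The closest pair, 504 bp apart on chromosome 9, differed by 1.19 in log2 change. Its left member, 120776324-120777250, had 309, 336 and 369 in CSE-KO and 471, 470 and 507 in WT, without overlap, and its fall missed the threshold. Its right member, 120777754-120778810, had 145, 97 and 123 in CSE-KO and 378, 399 and 404 in WT and was called lower. Regions that are not members showed a graded pattern around members: of 213 tested regions within 10 kb of a member called lower 32.9% were themselves lower, with a median log2 change of -0.53, against 14.1% of 333 regions near members that held and were not called, with a median of -0.16. Among all other regions with no assigned gene 11.3% were lower.

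Few promoters of the genes named by distance were called. A promoter region was measured for 380 of these genes, and 10 (2.63%) were lower, 11 (2.89%) higher and 359 not called, with a median log2 change of 0.05. For the 142 genes nearest to a member called lower, 5 promoters were lower, 5 higher and 132 not called. Over the promoters of all 10966 protein-coding genes measured, 1.95% were lower and 4.72% higher, with a median of 0.12.

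**Figure D5:**
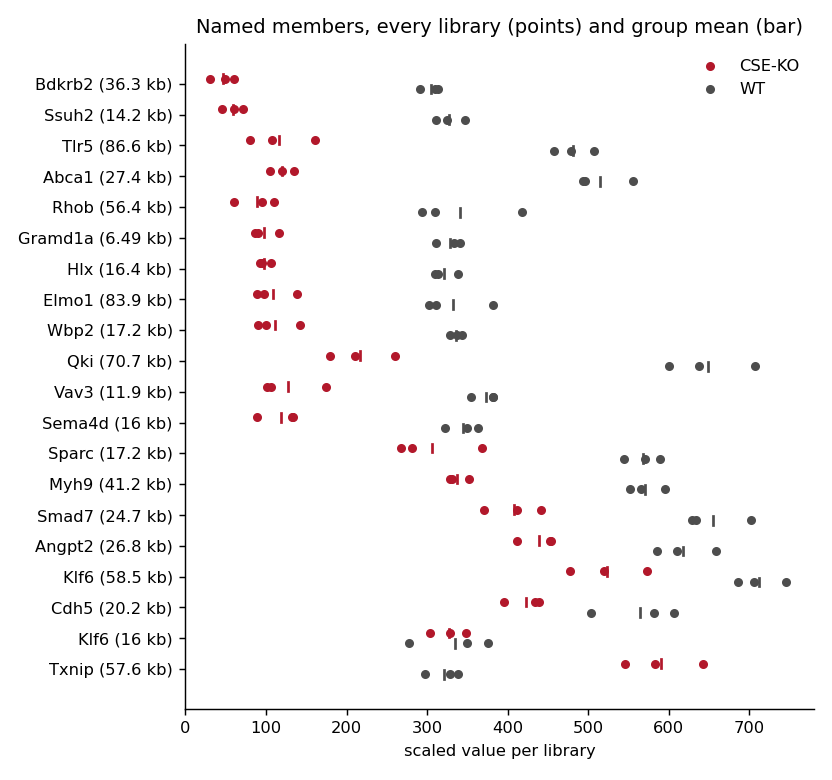
Scaled value in every library (points) and group mean (bars) for 20 members named by their nearest protein-coding start of the table, with the distance in kb. CSE-KO points lie left of WT points for every member shown except the Klf6 member at 16 kb, where they overlap, and the Txnip member at the bottom, where they lie to the right.

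The 12 members highest in WT, drawn in part in the plot of named members, include the highest of all at chr9:124422860-124425306, over a cluster with CG-rich starts, with 779, 962 and 884 in CSE-KO and 1223, 1211 and 1157 in WT. Its groups did not overlap, and its fall to 73.1% of WT missed the threshold (limma adjusted p = 0.0943). The second, within the sialyltransferase gene St3gal6, had 320, 360 and 451 in CSE-KO and 778, 811 and 691 in WT. This 2.03-fold fall (limma adjusted p = 0.0146) was not called without WT replicate 1 or 2 (adjusted p up to 0.0637). The St3gal6 member also holds a noncoding RefSeq start, that of Gm33475. A member 70.7 kb from Qki, which encodes an RNA-binding splicing regulator, had 260, 210 and 180 in CSE-KO and 707, 600 and 637 in WT, a 3.01-fold fall. These 3 members had no overlap between groups. Of the other members among the 12, those nearest to Wdr60, Smad7 and Smyd2 and one at chr18:5133209-5134503 were called lower, by 1.52-fold to 2.02-fold. These 4 calls ended without WT replicate 1 or 2, those of Wdr60, Smad7 and the chromosome 18 member also without WT replicate 3 (adjusted p up to 0.119), that of Wdr60 without any 1 CSE-KO library and that of Smad7 without CSE-KO replicate 2 or 3. Those nearest to Klf6 (58.5 kb) and Gm45837 were not called, with changes of -0.45 and -0.41. This Klf6 member holds a noncoding RefSeq start, that of Gm35413. The member near Spaca6, in the Spaca6 and Has1 genes, had 570, 709 and 573 in CSE-KO and 700, 716 and 633 in WT, and the one at chr7:106236288-106237223 had 562, 585 and 625 in CSE-KO and 665, 656 and 604 in WT. Groups overlapped in both, and both held.

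Among members called lower with groups apart, the 12 largest falls beside a protein-coding start with a full gene name, 1 per gene, lay near genes of varied roles. The member 36.3 kb from Bdkrb2, the bradykinin receptor that drives vasodilation, had 49, 60 and 31 in CSE-KO and 291, 310 and 313 in WT, a 6.64-fold fall (log2 change -2.73 ± 0.25 SE, limma adjusted p = 0.00281). The member 14.2 kb from Ssuh2 had 60, 46 and 71 in CSE-KO and 311, 347 and 325 in WT, a 5.56-fold fall. In both, all CSE-KO values were far under the lowest WT value. The member 27.4 kb from Abca1, the cholesterol efflux transporter, had 105, 120 and 135 in CSE-KO and 555, 496 and 493 in WT, a 4.28-fold fall. The member 86.6 kb from Tlr5, a receptor for bacterial flagellin, had 80, 107 and 161 in CSE-KO and 457, 507 and 479 in WT, a 4.29-fold fall. CSE-KO replicate 3 was the highest CSE-KO library in each of the last 3 members named.

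The other members among these 12 fell by 2.94-fold to 3.9-fold. The member 56.4 kb from Rhob, a small GTPase, had 60, 95 and 110 in CSE-KO and 418, 310 and 294 in WT, a 3.9-fold fall. The members near Elmo1, part of a Rac activator, and Vav3, an exchange factor for small GTPases, each lie inside the gene named and fell 3.07-fold and 3.01-fold. WT replicate 1 was the highest library at the Rhob member, and no member of these 3 had overlapping groups. The members near Gramd1a, a sterol transfer protein, and Hlx, a homeobox factor, fell 3.38-fold and 3.25-fold. Those near Wbp2, a transcriptional coactivator, and Sema4d, a semaphorin, fell 3.08-fold and 2.94-fold. The Gramd1a member also holds a noncoding RefSeq start, that of Gm10640. All 12 of these members, that of Qki included, were also called in every fit they could enter that left out a WT library used to choose them, with adjusted p of at most 0.0401. The WT libraries kept in those fits also chose the members, and the 12 were picked as the largest falls. These calls are therefore description and no independent check.

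Falls of this size were also called at 8 members with a predicted gene name or with no protein-coding start of the table within 100 kb. They are listed here after their values were seen. The largest, chr1:71956993-71957964, had 33, 110 and 44 in CSE-KO and 415, 347 and 300 in WT, a 6.35-fold fall. The member near Gm42791 had 64, 49 and 74 in CSE-KO and 335, 309 and 299 in WT, a 5.04-fold fall, and chr6:12393643-12394550 had 64, 67 and 77 in CSE-KO and 348, 353 and 292 in WT, a 4.72-fold fall. Groups did not overlap in these 3. The members starting at 21694978 and 3633667 on chromosome 10, 121376051 on chromosome 8, 120777754 on chromosome 9 and 5931875 on chromosome 18 fell by 2.95-fold to 3.98-fold. All 8 were called in every fit they could enter without a WT library that chose them, with adjusted p of at most 0.0446. The WT libraries kept in those fits also chose the members, and the 8 were listed for their falls, so this is no independent check.

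Of the promoters of these 12 genes 11 were measured, all but that of Ssuh2, and 1 was called. At Bdkrb2 the promoter had 52, 31 and 48 in CSE-KO and 65, 60 and 71 in WT, which did not overlap, with an adjusted p of 0.114 in limma. At Abca1 it had 127, 130 and 108 in CSE-KO and 119, 139 and 117 in WT, and at Rhob 403, 545 and 592 in CSE-KO and 503, 457 and 485 in WT, and both overlapped. At Hlx it had 281, 279 and 264 in CSE-KO and 378, 353 and 291 in WT, without overlap, and was not called (limma adjusted p = 0.255). The promoter called was that of Gramd1a, lower with 11, 2 and 16 in CSE-KO and 66, 70 and 63 in WT.

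Members with a call of higher numbered 2. The region 57.6 kb from Txnip, which encodes thioredoxin-interacting protein, had 583, 643 and 545 in CSE-KO and 338, 328 and 298 in WT, a 1.83-fold rise (log2 change 0.87 ± 0.16 SE, limma adjusted p = 0.0142). Its groups did not overlap. It was not called without WT replicate 1, 2 or 3 (adjusted p up to 0.0649), and the Txnip promoter itself was not called. This region, chr3:96499582-96501066, overlaps 3 tRNA genes in RefSeq. The other, at chr6:103649064-103649291 inside Chl1, was named after its values were seen. It is the narrowest member at 227 bp and had 2013, 1960 and 1906 in CSE-KO and 411, 277 and 233 in WT, a 6.55-fold rise (limma adjusted p = 0.00243). It was the second highest of all autosomal regions with no assigned gene in CSE-KO, WT replicate 1 was the 1 WT library above 300, and it was also called in the fit without that library.

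Members over tRNA genes, short genes read by RNA polymerase III, stood among the few with higher means in CSE-KO. The overlap was looked up after the Txnip member was seen. Of 652 members 6 overlapped a RefSeq tRNA gene, none was called lower, 5 had a change above 0, and their median log2 change was 0.29. Beside the Txnip member, the region near Olfr1423 with 4 tRNA genes had 560, 584 and 459 in CSE-KO and 392, 384 and 334 in WT. The region near Cfap126, also with 4, had 417, 466 and 423 in CSE-KO and 327, 324 and 320 in WT. Neither overlapped between groups, and neither passed the threshold (limma adjusted p = 0.0813 and 0.0957). Those near Prkab2, Shf and Eef2k, with 1 tRNA gene each, had changes of 0.10, 0.15 and -0.38 and held within 2-fold. Of the other 137 tested autosomal regions over a tRNA gene none was called lower and 23 (16.8%) were higher, with a median of 0.45, against 9.6% lower and 7.7% higher over all tested regions. tRNA genes have near-identical copies, and the placing of reads shared between copies was not tested.

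The held members highest in WT include those near a junction gene and an angiogenic ligand. The member 20.2 kb from Cdh5, in the gene of the junction protein VE-cadherin, had 439, 434 and 395 in CSE-KO and 606, 581 and 504 in WT, and its log2 change was -0.41 with a 95% interval of -0.79 to -0.03. The member 26.8 kb from Angpt2, a ligand of the Tie2 receptor, had 412, 452 and 454 in CSE-KO and 658, 610 and 585 in WT, with an interval of -0.85 to -0.13. Groups did not overlap in either, so holding within 2-fold here is not equality. The members near Mcu, the mitochondrial calcium uniporter, Atp5po, an ATP synthase subunit, and Crybg3 had CSE-KO means of 81.1%, 74.6% and 72.1% of WT and were not called. The member inside Bcl2l1, which encodes an inhibitor of apoptosis, held within 2-fold and was also called lower, 1.55-fold (limma adjusted p = 0.0329), a call that ended without any 1 of the 6 libraries (adjusted p 0.0521 to 0.116). The member at chr3:68493130-68494484, within Schip1, had 626, 662 and 584 in CSE-KO and 639, 553 and 623 in WT, with overlap and a change of 0.05. It was as high in CSE-KO as in WT to within the spread of the libraries.

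Gene lists were chosen with earlier results of these data known, and their counts are read beside the 37.0% of all members called lower. Of 11 members near 9 junction, cytoskeleton and integrin genes 8 were called lower, with a median log2 change of -0.76. The member in Myh9, nonmuscle myosin heavy chain, had 328, 352 and 331 in CSE-KO and 595, 566 and 552 in WT, a 1.69-fold fall. The member near Afdn, the junction scaffold afadin, had 294, 245 and 238 in CSE-KO and 404, 448 and 420 in WT, a 1.64-fold fall. Neither overlapped between groups, and both calls ended without WT replicate 1, 2 or 3, that of Afdn also without CSE-KO replicate 2 or 3 (adjusted p up to 0.0737 for Myh9 and 0.106 for Afdn). Over all 293 regions with no assigned gene near genes of this list, members included, 55 were lower and 19 higher, beside 11.8% lower and 8.59% higher over all tested autosomal regions with no assigned gene.

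Of 8 members near 7 genes of TGF-beta, BMP and SMAD signalling 5 were called lower, with a median of -0.77. The member 24.7 kb from Smad7, an inhibitory SMAD, had 441, 411 and 371 in CSE-KO and 702, 629 and 634 in WT, a 1.61-fold fall. The members near Ski, a corepressor of SMADs, and Tgfbi, a matrix protein induced by TGF-beta, fell 1.81-fold and 2.38-fold. No WT value was as low as any CSE-KO value in these 3. The Tgfbi call was made without each library in turn, while those of Smad7 and Ski ended without WT replicate 1, 2 or 3, and that of Smad7 also without CSE-KO replicate 2 or 3 (adjusted p up to 0.108). Of 4 members near matrix genes 3 were called lower. The member in Sparc, a matrix glycoprotein, had 268, 368 and 281 in CSE-KO and 589, 571 and 544 in WT, a 1.87-fold fall, and the member 10.4 kb from Col4a1, a basement membrane collagen, fell 2.19-fold. Without WT replicate 1 or 2 both calls ended, and that of Sparc also without WT replicate 3 (adjusted p up to 0.0742). The member in Lamb1, a laminin chain, had 345, 259 and 244 in CSE-KO and 366, 303 and 271 in WT, which overlapped, while its promoter was higher in CSE-KO with 56, 60 and 59, against 22, 30 and 31 in WT (limma adjusted p = 0.0123).

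Of 6 members near genes of VEGF signalling and angiogenesis 3 were called lower. The member 41.2 kb from Adm, the vasodilator peptide adrenomedullin, had 237, 227 and 285 in CSE-KO and 515, 380 and 385 in WT, a 1.7-fold fall. The Adm promoter moved the other way, with 51, 60 and 66 in CSE-KO and 31, 33 and 27 in WT (limma adjusted p = 0.0159). The member in Itgb3, the integrin beta chain that pairs with alpha V, fell 1.52-fold. The Itgb3 call ended without any 1 library and that of the Adm member without any but CSE-KO replicate 3 (adjusted p up to 0.134). Of 8 members near 6 endothelial identity genes, Cdh5, Cldn5, Gata2, Nrp2, S1pr1 and Tspan18, 2 were called lower and 5 held, with a median of -0.54. The 2 members near S1pr1, a receptor that steadies junctions, had changes of -0.54 and -0.47 and were not called, with CSE-KO below WT in every library of both. The 1 member near a lung capillary gene, 99.7 kb from Tmem100, had 147, 115 and 149 in CSE-KO and 325, 373 and 343 in WT, a 2.53-fold fall that was called without each library in turn.

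Near stress and immediate early genes most members were not called. Of 6 members near AP-1 and immediate early genes 1 was called lower, that near Maff, with 369, 282 and 277 in CSE-KO and 572, 549 and 546 in WT, a call lost on leaving out WT replicate 1, 2 or 3 in turn (adjusted p up to 0.079). The member near Fos had 291, 288 and 295 in CSE-KO and 396, 401 and 421 in WT, which did not overlap, and missed the threshold (limma adjusted p = 0.0665). The member over an Atf3 start had 325, 446 and 482 in CSE-KO and 318, 379 and 421 in WT, which did. Atf3 encodes a stress-induced partner of AP-1 factors. Of 3 members near genes of cysteine, glutathione and the ATF4 response none was called and all held. Gpx4, the glutathione peroxidase that reduces lipid peroxides, had members with changes of -0.29 and -0.43, and the latter holds a Gpx4 start. The member near Slc7a5, an amino acid transporter subunit, had 358, 331 and 408 in CSE-KO and 352, 302 and 309 in WT. The 2 members near histone acetylation genes, Hdac4, a histone deacetylase, and Brd3, a reader of acetylated histones, held with changes of -0.39 and 0.04, and both hold a start.

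Single members near other lists completed the set. The member 6 kb from Hes1, a Notch target, had 302, 349 and 313 in CSE-KO and 466, 448 and 513 in WT, without overlap, and missed the threshold (limma adjusted p = 0.0515). The member of Klf6, a flow-responsive factor, 16 kb away had 304, 328 and 348 in CSE-KO and 375, 350 and 278 in WT, with overlap. One member lay nearest to a gene of the mural and fibroblast marker list, 98 kb from Thy1. It had 433, 340 and 308 in CSE-KO and 661, 622 and 613 in WT, a 1.77-fold fall. It kept its call on leaving out CSE-KO replicate 1 and lost it on leaving out any other library (adjusted p up to 0.0935). One lay nearest to an epithelial marker, Scgb1a1, inside Ahnak, and was not called. None lay nearest to a leukocyte marker, whose list had 7 genes in the table.

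The other lists were read in the same way over all tested autosomal regions with no assigned gene near their genes, members included, beside the 11.8% lower and 8.59% higher over every such region. Near TGF-beta, BMP and SMAD genes 49 of 186 were lower and 10 higher, near matrix genes 38 and 12 of 163, near VEGF and angiogenesis genes 31 and 14 of 144 and near endothelial identity genes 43 and 9 of 213. Near Notch genes 16 of 99 were lower and 11 higher, near flow, KLF and MEF2 genes 14 and 8 of 88, and near AP-1 and immediate early genes 14 and 6 of 99. Near genes of cysteine, glutathione and ATF4 8 of 60 were lower and 4 higher, near histone acetylation genes 8 and 6 of 61 and near lung capillary genes 5 and 4 of 57. Near mural and fibroblast markers 4 of 21 were lower and none higher, near epithelial markers 2 and 1 of 29, and near leukocyte markers none of 3 was called.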

How the data were processed

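ATAC-seq was measured in 6 libraries, 3 CSE-KO and 3 WT, grouped by their titles. The tools DESeq2 1.26.0, Picard 3.1.1, STAR 2.7.3a and Trimmomatic 0.39 and the build mm10 are named in the submitters' processing notes. What each did, how peaks were called and whether cut sites were shifted for Tn5: not given in the sources used here. Values are used as a score, since they are deposited whole numbers already scaled between libraries by the authors, with sums of 5437296, 5547417 and 5536256 in CSE-KO and 5368491, 5264443 and 5242490 in WT, so depth in reads is known only through the spacing of low values. Coordinates are those of the deposited table.

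limma 3.58.1 in R 4.3.3 was fitted on log2(value + 1) of 58129 regions whose 6 values average at least 5, with trend and robust off and Benjamini-Hochberg adjustment at 0.05. Effects are CSE-KO minus WT on that scale. The code was tested on simulated data. RefSeq tables (GRCm38.p6, whose chromosomes have the coordinates of mm10) gave gene spans, start windows and tRNA genes. No genome was used here, so region sequences away from starts were not read.

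The members and gene lists were chosen with earlier results of these data known. Members named were the 12 highest in WT, the 12 largest falls and up to 8 rises among called members with groups apart and a named gene, 8 further held members, up to 3 per list, and 3 on each side of the floor, of which 1 is not reported here. Same-numbered libraries did not deviate together (r of 0.0206, -0.033 and 0.0315 over 17086 regions). Alternatives changed the pseudocount, filter, variance model, scaling, block, libraries and choice of members.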

Additional observations from a re-analysis of the deposited data

How the results depend on the processing

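The number of members called lower, 241, was 401 with trend and robust on, 86 to 204 without 1 library (lowest without WT replicate 1, with 90 and 94 without WT replicates 2 and 3), and 99, 84 and 84 when WT replicates 1, 2 and 3 in turn chose the members and were left out of the fit. With the replicate number as a block it was 134, and the numbers do not pair the samples by the check of same-numbered libraries. It was 93 with members chosen on the mean of all 6 libraries, 21 on the CSE-KO mean, 648 at a WT mean of at least 200 and 35 at 500. The number called higher, 2, was 15 with trend and robust, 1 to 2 without 1 library, 2, 0 and 0 with members chosen on WT replicates 1, 2 and 3, 14 on the mean of all 6, 42 on the CSE-KO mean, 13 at 200 and 0 at 500. The number that held, 407, was 1240 at 200 and 33 at 500, for 1969 and 68 members, against 652 at 300 and 389 on the CSE-KO mean.

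The median log2 change, -0.45, was -0.44 with a pseudocount of 10, with equal sums and with quantile normalization, -0.56 with promoter scaling, -0.48 to -0.43 without 1 library, -0.42, -0.43 and -0.46 with members chosen on WT replicates 1, 2 and 3, -0.23 on the mean of all 6, -0.39 at 200, -0.64 at 500 and -0.50 without members that hold a RefSeq start or lie on chromosome 18, an alternative chosen after seeing the data. It turned to 0.05 with members chosen on the CSE-KO mean, where the list itself differs.

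For 58 named members under 14 fits, 689 of 812 values kept direction and side of the threshold, 79 lost the call and 34 gained it. Direction turned in 10, all of members not called: the member at chr3:68493130 (-0.06 with promoter scaling, -0.02 to 0.09 without 1 library), Klf6 at 16 kb (-0.15 to 0.06 without 1 library), Brd3 (-0.06 with promoter scaling, -0.13 to 0.14 without 1 library) and the one at chr10:90068542 (-0.10 to 0.02 without 1 library). The cause was not tested. The planned motif search around region centres was not run, because no genome was given, and start windows were used in its place. The lower depth of the CSE-KO libraries limits the precision of their values.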
